A study of Mus musculus with 4 samples.

Results

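The genes of the cytosolic ribosomal proteins were examined for peaks of the haem-sensing receptor NR1D1, a repressor of the circadian clock also called REV-ERB alpha. They were chosen by symbol from the RefSeq annotation, as protein-coding genes named Rpl or Rps with a number, or Rplp0, Rplp1, Rplp2 and Rpsa, without the Rps6k kinases and pseudogenes. This gave 89 of 21883 protein-coding genes. Of these, 43 encode proteins of the large subunit, 3 the stalk, 31 the small subunit, and 12 are paralogs such as Rpl3l and Rps27l or other genes that share the name, such as Rps19bp1.

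Chromatin was profiled by CUT&Tag, in which an antibody tethers a transposase that cuts out and tags the DNA beside its target. The cells were primary vascular smooth muscle cells of wild-type genotype, grown out from mouse aortas. They received vasostatin-2, an N-terminal fragment of chromogranin A, for 24 h, or phosphate-buffered saline (PBS) for the same time, and every library has the same batch label. The labels name 4 libraries, and the 2 made with the NR1D1 antibody were analysed. Libraries made with IgG were not analysed here, so peaks at active promoters cannot be told apart from CUT&Tag signal that does not depend on the NR1D1 antibody. Each treatment thus has 1 library and no replicate error, so no test of a treatment effect was made, and every difference is one between 2 libraries. The dose, the age of the mice and the number of animals are not given in the sources used here. In such bulk libraries, signal in fewer cells and less signal per cell cannot be told apart.

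Ribosomal proteins assemble with ribosomal RNA into the small subunit, which reads the mRNA, and the large subunit, which forms peptide bonds. Their genes are short, are expressed in all cells and usually start transcription at a C within a run of pyrimidines, which places a terminal oligopyrimidine (TOP) motif at the 5′ end of the mRNA. NR1D1 binds DNA at the nuclear receptor core motif AGGTCA, best when A and T bases precede it, or as a pair of such motifs called RevDR2. It can also reach chromatin through other DNA-bound factors.

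The promoters shown here are the sequence beside or under the shared NR1D1 peaks. They belong to all genes in both lists with a RefSeq promoter entry, without Rpl4, whose peaks lay at the other end of the gene. Each stretch runs from 250 bases before to 20 bases after the RefSeq start on GRCm38.p6 (mm10). The positions are chr7:24884342-24884611, plus strand, for Rps19, chrX:74270566-74270835, plus strand, for Rpl10, chr9:44407464-44407733, plus strand, for Rps25, chr13:90922872-90923141, plus strand, for Rps23 and chr7:45128726-45128995, minus strand, for Rpl13a. Capitals mark matches to GGGCGG or CCGGAAG, searched on both strands. A match to GGGCGG on the other strand reads CCGCCC.
Rps19: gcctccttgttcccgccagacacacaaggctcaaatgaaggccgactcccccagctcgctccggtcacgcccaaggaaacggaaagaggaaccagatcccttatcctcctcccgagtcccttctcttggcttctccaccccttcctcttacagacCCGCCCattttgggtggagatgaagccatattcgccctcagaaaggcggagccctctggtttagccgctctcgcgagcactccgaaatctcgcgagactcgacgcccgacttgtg
Rpl10: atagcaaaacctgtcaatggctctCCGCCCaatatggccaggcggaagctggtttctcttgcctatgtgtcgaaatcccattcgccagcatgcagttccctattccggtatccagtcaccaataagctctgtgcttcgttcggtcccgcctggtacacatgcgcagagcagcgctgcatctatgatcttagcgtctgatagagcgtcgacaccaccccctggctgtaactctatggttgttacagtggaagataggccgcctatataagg
Rps25: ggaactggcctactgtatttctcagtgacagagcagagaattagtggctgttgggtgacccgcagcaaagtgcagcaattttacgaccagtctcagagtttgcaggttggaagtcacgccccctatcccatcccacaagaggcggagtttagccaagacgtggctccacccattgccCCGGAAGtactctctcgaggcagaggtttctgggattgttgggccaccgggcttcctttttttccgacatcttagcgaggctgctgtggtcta
Rps23: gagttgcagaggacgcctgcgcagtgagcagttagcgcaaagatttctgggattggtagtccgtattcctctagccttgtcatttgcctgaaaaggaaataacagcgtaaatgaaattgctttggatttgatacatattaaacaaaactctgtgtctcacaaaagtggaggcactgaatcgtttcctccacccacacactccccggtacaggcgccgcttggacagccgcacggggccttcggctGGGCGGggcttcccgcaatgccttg
Rpl13a: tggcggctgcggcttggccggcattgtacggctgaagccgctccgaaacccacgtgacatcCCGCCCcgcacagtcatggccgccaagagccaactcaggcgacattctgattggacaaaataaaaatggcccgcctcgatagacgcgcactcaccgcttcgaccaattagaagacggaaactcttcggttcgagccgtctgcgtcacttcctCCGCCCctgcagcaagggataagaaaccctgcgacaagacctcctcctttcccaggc

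Rps19, Rpl10, Rps23 and Rpl13a each held GGGCGG, the core of the GC box bound by SP1, and Rpl13a held it at 2 places in the stretch shown. Rps25 held CCGGAAG, the core of ETS family sites, 73 bases before its start. Of these matches, only that of Rpl10 lay within the peaks of both lists. Those of Rpl13a lay within the vasostatin-2 peak alone and that of Rps25 within the PBS peak alone. Those of Rps19 and Rps23 lay just outside both peaks. The nuclear receptor motif AGGTCA stood in none of these 5 stretches.

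Over the whole window of 300 bases, from 250 before to 50 after the start, 40 of 69 members with a promoter entry held GGGCGG (58.0%), against 46.3% of 17491 protein-coding promoters. CCGGAAG stood in 25 of 69 member promoters (36.2%), against 11.9% of all. AAGATGGC, a core of YY1 sites, stood in 6 (8.7%), against 3.21% of all. A C at the annotated start followed by at least 4 pyrimidines was found in 14 (20.3%), against 2.17% of all. Of these motifs, the pyrimidine start and the ETS core showed the largest ratios of member share to overall share.

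AGGTCA stood in 8 of 69 member promoters (11.6%), against 14.5% of all promoters. None of the 20 members with a peak in either list held it, and 8 of the 49 without a peak did, paralogs included. The longer TAGGTCA, which contains AGGTCA, was in 0 of 69 member promoters and 2.33% of all. RevDR2 was searched only as an exact repeat of AGGTCA in the same direction at a fixed spacing, without variant half-sites. That exact pattern was in 0 of 69 member promoters and 0 of 17491, so its absence does not set the members apart. GGGCGG stood in 17 of the 20 members with a peak (85.0%) and in 23 of the 49 without (46.9%). CCGGAAG stood in 9 of 20 (45.0%) and 16 of 49 (32.7%). Members with and without a peak had nearly the same GC content, with medians of 58.0% with a peak and 57.0% without, against 56.3% over all promoters. These counts concern these letters in this window and not the sequence under each summit. For some members the peak lay at the other end of the gene. Summits of others lay before the window, as at Rps19, Rpl13a, Rps25, Rpsa, Rpl37 and Rpl27a, or past it, as at Rplp0 and Rpl38.

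NR1D1 peaks lay within 1 kb of either end of 12 of the 89 genes in the vasostatin-2 list (13.5%, exact 95% interval 7.17 to 22.4) and of 24 in the PBS list (27.0%, 18.1 to 37.4). Over all protein-coding genes the shares were 10.4% in the vasostatin-2 list and 14.8% in the PBS list. The vasostatin-2 interval thus held the share of all genes, and the PBS interval lay above it. The ratio of member share to overall share, which carries no interval here, was 1.3 with vasostatin-2 and 1.83 with PBS. Which list had the higher ratio depended on the rule for a peak. Among summits of at least 8 fragments, with vasostatin-2 fragments divided by relative depth, members stood at 6.74% with vasostatin-2 (3.18% of all genes, a ratio of 2.12) and at 20.2% with PBS (10.6% of all genes, a ratio of 1.91). By gene, 9 members had a peak in both lists (7.19% of all genes did), 3 in the vasostatin-2 list alone (3.20% of all genes) and 15 in the PBS list alone (7.59% of all genes). The remaining 62 members had no peak. The 9 shared genes made up 75.0% of the members in the vasostatin-2 list and 37.5% of those in the PBS list, against 69.2% of the vasostatin-2 genes and 48.7% of the PBS genes overall.

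**Figure D1:**
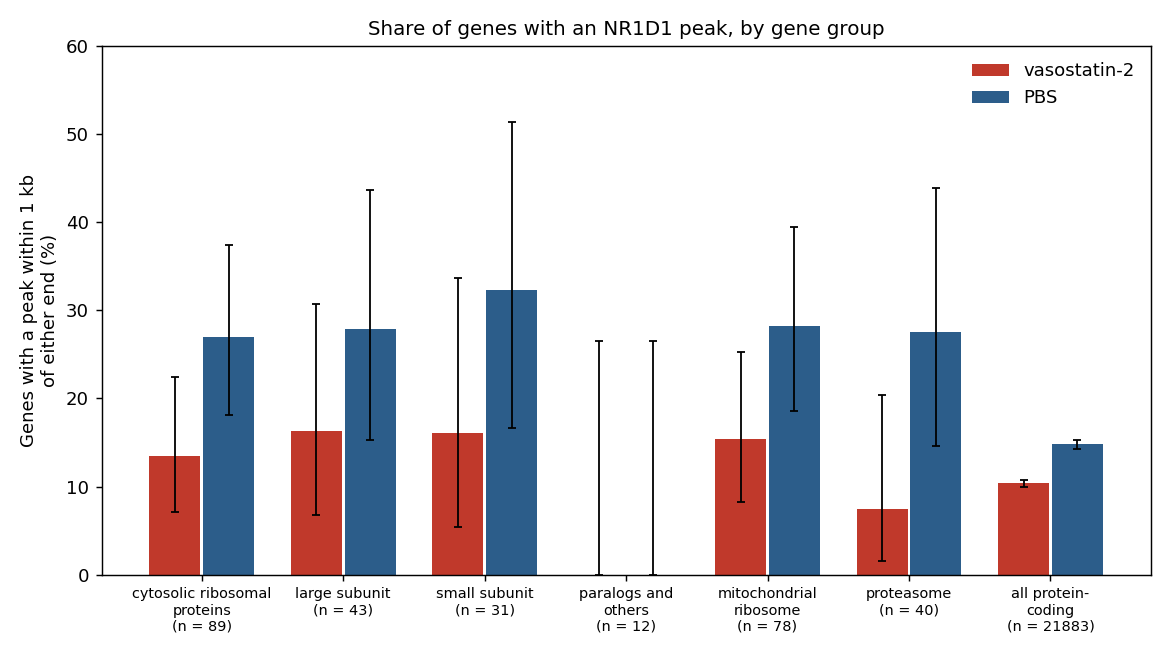
Bars give, in percent, how many genes of 7 groups had a peak in their window in the vasostatin-2 list (left of each pair) and the PBS list, and lines the exact 95% intervals, which cover counting error only. Cytosolic ribosomal protein genes stand at 13.5% with vasostatin-2 and 27.0% with PBS, close to mitochondrial ribosomal protein genes at 15.4% with vasostatin-2 and 28.2% with PBS.

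The peaks were spread over both subunits and absent from the paralogs. In the large subunit 7 of 43 genes had a vasostatin-2 peak (16.3%) and 12 a PBS peak (27.9%). In the small subunit 5 of 31 genes had a vasostatin-2 peak (16.1%) and 10 a PBS peak (32.3%). Of the stalk genes, which encode the P proteins that recruit elongation factors, 0 of 3 had a vasostatin-2 peak and 2 a PBS peak, Rplp0 and Rplp2. None of the 12 paralogs and other genes had a peak in either list, a count of 0 that allows a share of up to 25.0% (3 counts of 12). Without those 12 genes the shares were 15.6% in the vasostatin-2 list and 31.2% in the PBS list.

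Similar shares were found for other large complexes of housekeeping genes. Of 78 mitochondrial ribosomal protein genes, whose products translate the mRNAs of the mitochondrial genome, 12 had a vasostatin-2 peak (15.4%, 8.21 to 25.3) and 22 a PBS peak (28.2%, 18.6 to 39.5). Among them Mrpl34 had 18 fragments at its summit in the vasostatin-2 library and 29 in the PBS library. Of 40 proteasome subunit genes 3 had a vasostatin-2 peak (7.5%, 1.57 to 20.4) and 11 a PBS peak (27.5%, 14.6 to 43.9). Psmd3, a subunit of the regulatory particle, had 17 fragments with vasostatin-2 and 29 with PBS. The intervals of the 3 groups overlap in each list.

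Gene length and close neighbours were measured beside these shares. The median member was 3183 bp long, against 17170 bp for all protein-coding genes. Genes between 1515 and 5908 bp, the 10th to 90th percentile of member length, showed one at 9.88% of genes with vasostatin-2 and at 13.9% with PBS. Another protein-coding gene ended or began within 1 kb of an end of 32 members. Of those 32, 6 had a vasostatin-2 peak (18.8%, against 19.3% of all genes with such a neighbour) and 10 a PBS peak (31.2%, against 27.3%). Of the 57 members with no such neighbour, 6 had a vasostatin-2 peak (10.5%, against 7.46% of all such genes) and 14 a PBS peak (24.6%, 14.1 to 37.8, against 10.7%).

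Peaks at these genes were modest in both libraries. The summit held 6 to 18 fragments, with a median of 9.5, at the 12 genes of the vasostatin-2 list, and 5 to 23, with a median of 11, at the 24 genes of the PBS list. Median fold enrichment was 5.83 in the vasostatin-2 list and 5.97 in the PBS list, as the authors' own values, against 5.07 over all vasostatin-2 peaks and 5.33 over all PBS peaks. The median member ranked at the 68.5th percentile of the vasostatin-2 list and the 64.3rd percentile of the PBS list by fold. Median -log10 q was 4.60 in the vasostatin-2 list and 5.05 in the PBS list. The highest peak of each protein-coding gene had a median of 8 fragments and 5.29-fold in the vasostatin-2 list, and 10 fragments and 5.88-fold in the PBS list, so the members resembled other gene-end peaks in strength.

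**Figure D2:**
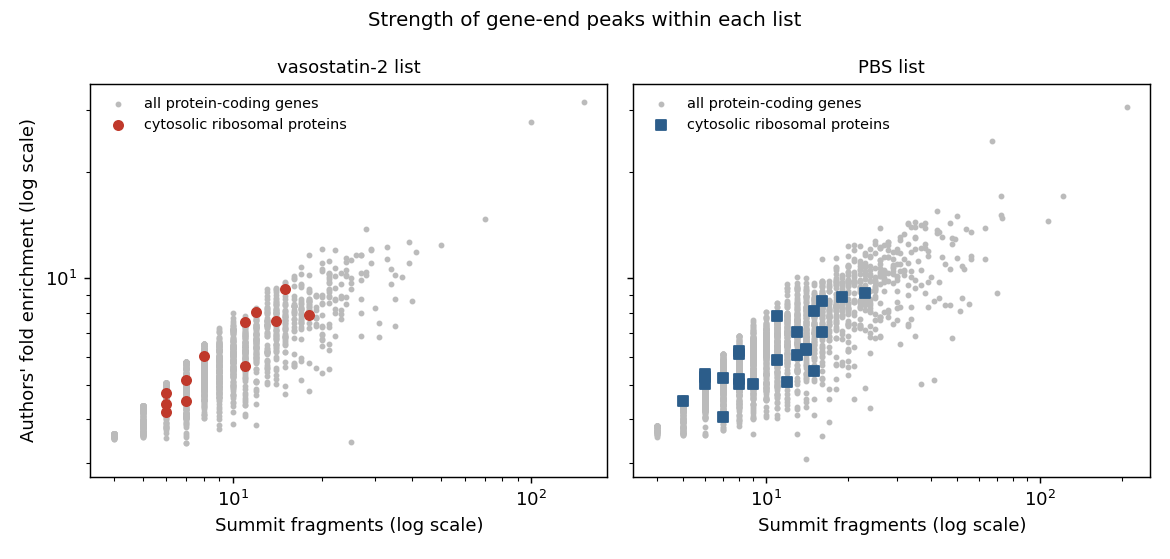
Each point is the highest peak of a protein-coding gene, by summit fragments (log axis) and the authors' fold enrichment (log axis), with ribosomal protein genes coloured, in the vasostatin-2 list (left) and the PBS list (right). The coloured points reach 18 fragments in the vasostatin-2 list and 23 in the PBS list and lie inside the cloud of other genes.

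Within each list the small-subunit genes had the stronger peaks. In the vasostatin-2 list the 5 small-subunit genes had a median of 11 fragments and 7.53-fold, and the 7 large-subunit genes 7 fragments and 4.75-fold. In the PBS list the 10 small-subunit genes had a median of 13.5 fragments and 6.67-fold, and the 12 large-subunit genes 9.5 fragments and 5.37-fold. Of the small-subunit genes, 5 of 5 lay above the median fold of the vasostatin-2 list and 9 of 10 above that of the PBS list. Of the large-subunit genes, 3 of 7 did in the vasostatin-2 list and 6 of 12 in the PBS list. The ranges of the subunits overlapped in both lists.

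Of the large-subunit genes with a peak in both lists, Rpl10, Rpl13a and Rpl36 had over 10 fragments in at least 1 library. Rpl10, whose protein joins late in the maturation of the large subunit, had 7 fragments and 4.48-fold in the vasostatin-2 library and 16 fragments and 8.63-fold in the PBS library. Its peaks lay on chromosome X, 74270392 to 74270739 in the vasostatin-2 list and 74270380 to 74270818 in the PBS list, just upstream of the gene. The -log10 q was 2.38 with vasostatin-2 and 10.8 with PBS, the widest gap among these 3 genes.

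Rpl13a, which in human cells can leave the ribosome to join a complex that blocks translation of inflammatory mRNAs, had 18 fragments and 7.87-fold with vasostatin-2 and 13 fragments and 6.05-fold with PBS. The peaks lay on chromosome 7, 45128697 to 45129193 in the vasostatin-2 list and 45128967 to 45129357 in the PBS list. This was the largest number of fragments at any member in the vasostatin-2 list. Rpl36 had 14 fragments and 7.59-fold with vasostatin-2 and 11 fragments and 5.89-fold with PBS, on chromosome 17, 56609781 to 56610088 with vasostatin-2 and 56609782 to 56609985 with PBS. An end of Micos13, a gene of mitochondrial cristae organisation, also lay within 1 kb of the Rpl36 summits.

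Rpl3 and Rpl4 had weaker shared peaks. Rpl3, a protein close to the peptidyl transferase centre, had 7 fragments and 5.14-fold with vasostatin-2 and 8 fragments and 5.19-fold with PBS, on chromosome 15 with summits 108 bp (vasostatin-2) and 98 bp (PBS) from the gene. Rpl4, a protein of the nascent peptide tunnel, had 6 fragments and 4.18-fold with vasostatin-2 and 8 fragments and 6.12-fold with PBS. The Rpl4 summits lay 942 bp (vasostatin-2) and 947 bp (PBS) past the far end of the gene on chromosome 9, and an end of Snapc5 was within 1 kb of them.

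In the small subunit, Rps19, Rps23, Rps25 and Rps27a had a peak in both lists. Rps19, mutated in human Diamond-Blackfan anaemia, had 11 fragments and 5.63-fold with vasostatin-2 and 23 fragments and 9.07-fold with PBS, the highest fold of any member in the PBS list. Its peaks lay on chromosome 7, 24883972 to 24884447 with vasostatin-2 and 24883964 to 24884494 with PBS, with summits 7 bp apart. The -log10 q was 4.59 with vasostatin-2 and 14.6 with PBS.

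Rps25, used by several viral and cellular internal ribosome entry sites, had 15 fragments in each library. Its fold was 9.35 with vasostatin-2, the highest of any member in that list, and 8.08 with PBS. The peaks lay on chromosome 9, 44407062 to 44407634 with vasostatin-2 and 44406924 to 44407652 with PBS, and an end of the neighbouring gene Trappc4 was within 1 kb of both summits. It was the one shared member with equal numbers of fragments.

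Rps23, a protein of the decoding centre, had 12 fragments and 8.02-fold with vasostatin-2 and 11 fragments and 7.80-fold with PBS, on chromosome 13, 90922824 to 90923115 with vasostatin-2 and 90922799 to 90923080 with PBS. Rps27a, which encodes ubiquitin fused to the ribosomal protein, had 8 fragments and 6.03-fold with vasostatin-2 and 5 fragments and 4.50-fold with PBS. Its summits on chromosome 11 were 224 bp apart, the only shared member over 200 bp, and an end of Clhc1 lay within 1 kb. Both genes thus had more raw fragments in the vasostatin-2 library.

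**Figure D3:**
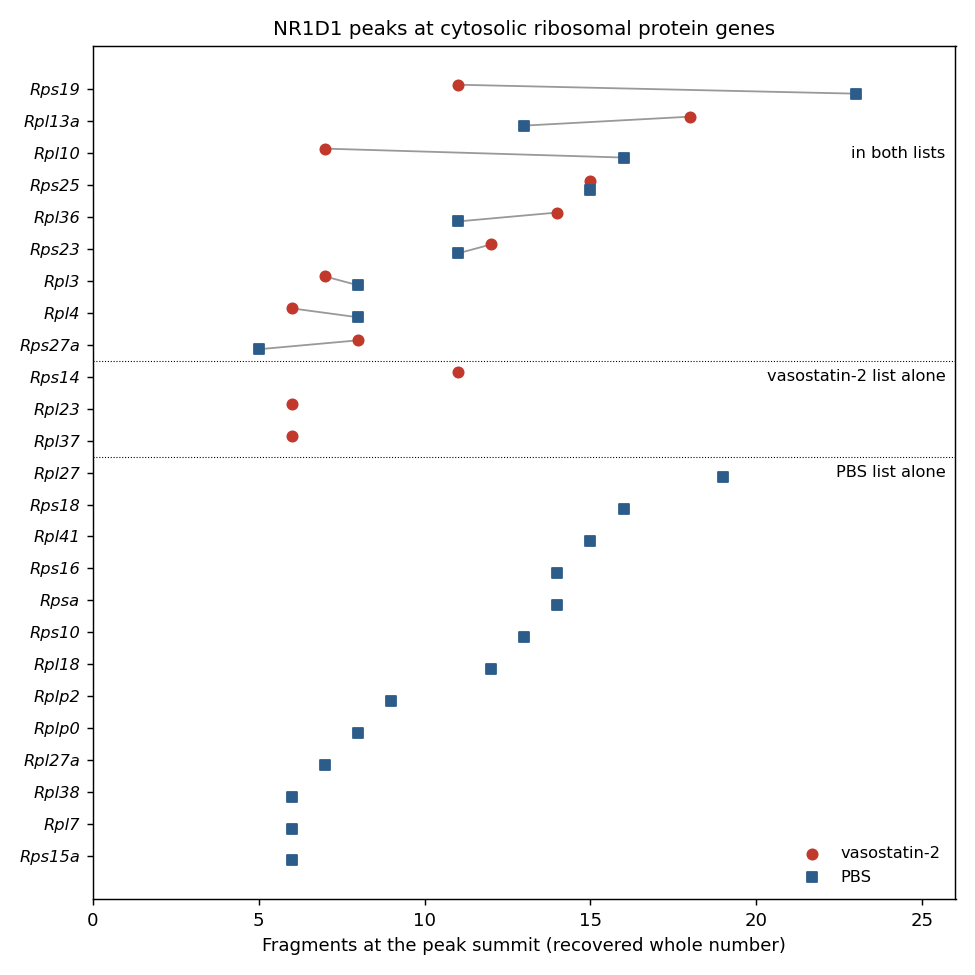
Points give the summit fragments of 25 of the 27 ribosomal protein genes with a peak, red circles for the vasostatin-2 and blue squares for the PBS library, grouped by the lists that hold the gene. Rps19 and Rpl10 have the widest gaps among shared genes, and the 13 genes shown of the PBS list alone reach 19 fragments.

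At the 9 shared genes the vasostatin-2 library held 98 fragments and the PBS library 110. After division by the relative depth of 1.32, the median of the 9 single log2 ratios (vasostatin-2 over PBS) was -0.40 (range -1.59 to 0.28), and 7 of 9 were below 0. Over all protein-coding genes, 899 pairs of overlapping peaks with 13 to 34 fragments together, the range of the members, had a median of -0.78 (middle part, 25th to 75th percentile, -1.11 to -0.54), and 95.2% were below 0. The median of the members was thus less far below 0 than that of all such pairs, and both medians move with the inferred depth. Pooled over the 9 genes, the depth-scaled log2 ratio was -0.57 (95% interval -0.97 to -0.16). That interval holds the median of all such pairs, but a ratio of summed fragments and a median of single ratios are unlike measures. The difference was not tested.

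Single genes were mostly within counting error of no difference. Rpl10 had a log2 ratio of -1.59 (exact 95% interval -3.12 to -0.23) and Rps19 of -1.46 (-2.65 to -0.37), and these 2 intervals lay below 0. Without depth scaling both included 0, reaching 0.17 at Rpl10 and 0.03 at Rps19, as did all 9. The other 7 depth-scaled intervals included 0, among them Rpl13a at 0.07 (-1.04 to 1.22) and Rps27a at 0.28 (-1.52 to 2.24). The unscaled median ratio was 0.0, since 4 genes had more fragments with vasostatin-2, 4 had fewer and 1 had the same number.

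**Figure D4:**
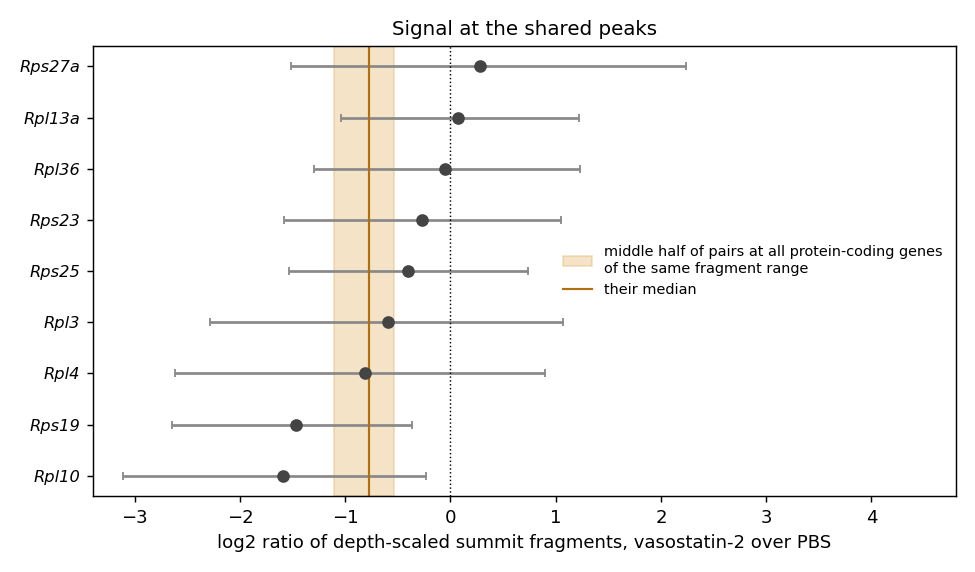
Points give the log2 ratio of summit fragments (vasostatin-2 divided by depth, over PBS) at the 9 shared genes, with exact 95% binomial intervals, and the band shows the 25th to 75th percentile of 899 pairs at all protein-coding genes. Only the intervals of Rps19 and Rpl10 lie wholly below 0, which they do not without depth scaling, and 5 genes lie to the right of the band.

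Rps14, Rpl23 and Rpl37 had a peak in the vasostatin-2 list alone. Rps14, lost in the human 5q- syndrome, had 11 fragments and 7.53-fold on chromosome 18, with its summit 182 bp from the gene. Rpl23, whose protein can bind the p53 regulator MDM2, had 6 fragments and 4.39-fold, 459 bp past the far end of the gene on chromosome 11. Rpl37 had 6 fragments and 4.75-fold on chromosome 15, 472 bp upstream of its start, with an end of Card6 within 1 kb. The nearest PBS summits were 8326 bp from that of Rps14, 22955 bp from that of Rpl23 and 321737 bp from that of Rpl37. Rps14 was the one of these with more than 6 fragments.

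The 15 genes of the PBS list alone included some of the stronger member peaks. Rpl27 led them with 19 fragments and 8.88-fold, on chromosome 11, 101442051 to 101442474, with its summit 4 bp before the annotated start. Rps18 had 16 fragments and 7.05-fold, and Rps10 had 13 fragments and 7.04-fold, both on chromosome 17 within 108 bp of their starts. Rpsa, also known as the laminin receptor, had 14 fragments and 6.30-fold, and Rps16 14 fragments and 6.27-fold. No vasostatin-2 peak was listed in the window of these 5 genes.

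Rpl41, which encodes the shortest ribosomal protein, had 15 fragments and 5.48-fold in the PBS list alone. Rpl41 was the only member with several peaks in its window, the other having 10 fragments and 3.74-fold. Rps15a (5.34-fold), Rpl7 (5.25-fold) and Rpl27a (5.23-fold) had 6, 6 and 7 fragments. Rpl18, Rpl38, Rplp0 and Rplp2 lay between 5.02-fold and 5.08-fold. Of the 15 genes, 7 had at least 12 fragments and 8 at most 9, and the nearest vasostatin-2 summit was 7684 to 170130 bp away. A summit of 4 fragments was enough for a peak in either list where the background was lowest, but more were needed where it was higher, so the lists do not show whether these genes had weaker signal with vasostatin-2.

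The peaks lay mostly at and before the starts of the genes. In the vasostatin-2 list 6 of 8 members with a known strand had their summit nearer to the start than to the far end, and in the PBS list 16 of 18. Over all protein-coding genes with a strand these shares were 90.4% with vasostatin-2 and 93.0% with PBS. Summits upstream of the start made up 6 of 8 in the vasostatin-2 list (75.0%, against 56.9% of all genes) and 14 of 18 in the PBS list (77.8%, against 60.3%). For Rpl18 and Rpl38 the start in the promoter table lay 2604 bp and 762 bp inside the annotated gene, so their distances depend on that start. The median position of a member summit relative to the start was -263 bp in the vasostatin-2 list and -95 bp in the PBS list. Summits inside the gene numbered 0 of 12 with vasostatin-2 and 4 of 24 with PBS, at Rpl38, Rplp0, Rps15a and Rps27a.

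**Figure D5:**
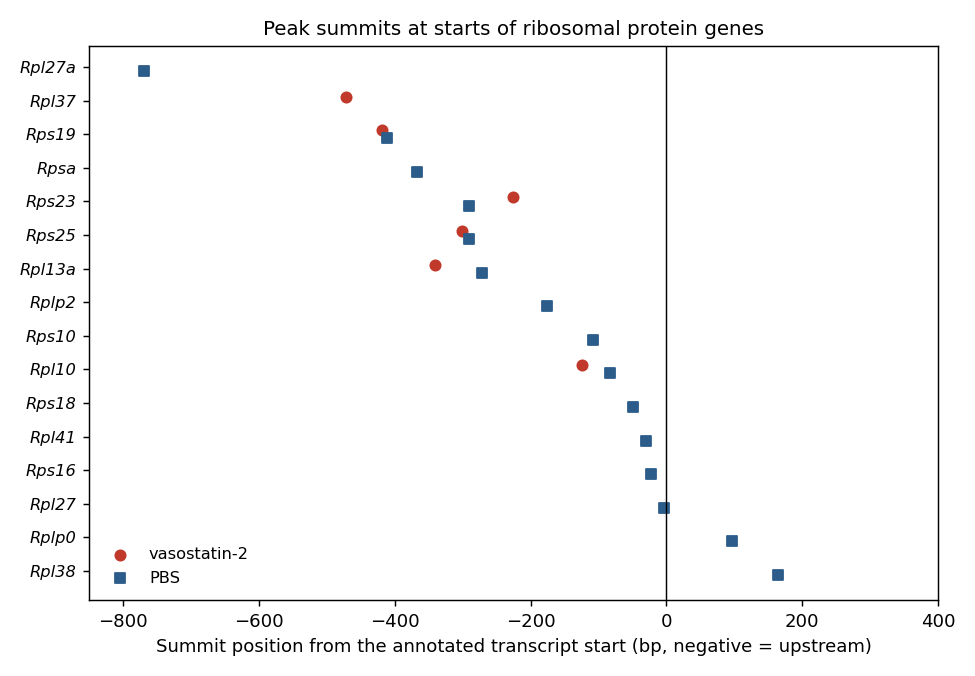
Each row is one of 16 ribosomal protein genes with a summit within 1 kb of the annotated start, and points give the summit's distance from that start in bp, negative upstream, for vasostatin-2 (red circles) and PBS (blue squares). All vasostatin-2 summits shown lie upstream, and Rplp0 and Rpl38 are the genes with a PBS summit downstream.

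At 7 of the 27 members with a peak, another protein-coding gene had an end within 1 kb of a summit. These were Rpl36, Rpl37, Rpl4, Rplp2, Rps18, Rps25 and Rps27a, and a peak there cannot be assigned to either gene of the pair. Pidd1 lay beside Rplp2 and Vps52 beside Rps18. Chromosome 7 carried 14 members, of which 2 had a vasostatin-2 peak (14.3%, against 11.3% of all 2030 protein-coding genes there) and 8 a PBS peak (57.1%, against 15.3%). This chromosome was picked after its values were seen.

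Other genes of protein synthesis also had more peaks in the PBS list, as did protein-coding genes as a whole (10.4% with vasostatin-2 and 14.8% with PBS). Of 15 genes for translation factors and other products of TOP mRNAs, 5 had a vasostatin-2 peak and 8 a PBS peak. Eef1a1, the elongation factor that delivers aminoacyl-tRNA, had 12 fragments with vasostatin-2 and 17 with PBS, Eef1g had 16 with vasostatin-2 and 22 with PBS, and Eef1d 12 with vasostatin-2 and 15 with PBS. The RNA-binding protein gene Hnrnpa1 had 10 with vasostatin-2 and 27 with PBS. All 5 genes of the vasostatin-2 list were also in the PBS list. Fau, which encodes a ribosomal protein made as a fusion and lies outside the symbol rule, had a peak of 14 fragments in the PBS list alone.

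Of 26 ribosome assembly genes 6 had a vasostatin-2 peak and 9 a PBS peak. Ncl, which encodes nucleolin, had 16 fragments with vasostatin-2 and 17 with PBS, and Nop16 had 8 with vasostatin-2 and 22 with PBS. Of 13 genes for the transcription of ribosomal DNA 0 had a vasostatin-2 peak and 4 a PBS peak, namely Rrn3, the polymerase I initiation factor (14 fragments), Polr1d (8), Myc (8) and Polr1b (5). The 0 in the vasostatin-2 list allows a share of up to 23.1% (3 counts of 13).

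The lists as a whole held 8816 peaks with vasostatin-2 and 7377 with PBS, and the median summit held 7 fragments with vasostatin-2 and 8 with PBS. Of 19 core clock genes, 8 had a vasostatin-2 peak and 9 a PBS peak, all 8 in both, with Per2 at 39 fragments with vasostatin-2 and 63 with PBS. Peak lists carry no RNA levels, so the cell type label cannot be checked by expression. A peak was found at 2 of 16 contractile smooth muscle genes in each list, at 1 of 12 endothelial genes in each, at 0 of 12 leukocyte genes in each, and at 0 (vasostatin-2) and 1 (PBS) of 12 fibroblast genes. Over all protein-coding genes the shares were 10.4% with vasostatin-2 and 14.8% with PBS, so such small counts cannot tell cell types apart.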

How the data were processed

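The deposited lists give the NR1D1 peaks of 1 library per treatment, with no replicates pooled. MACS2 2.2.7.1, BWA 0.7.17, Trimmomatic 0.39 and the build mm10 are named in the submitters' processing notes, without roles or settings. The deposited fold enrichment was taken as a ratio of the summit to its local background in the same library. With no settings named, it is not known whether an IgG library set that background, and the relative depth rests on this reading. Significance is deposited per peak as the -log10 p-value and the -log10 of the q-value, and no peak had a -log10 q below 1.31 in the vasostatin-2 list or 1.32 in the PBS list. The deposited score repeats the q-value and was left aside.

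Fragments per summit were solved as whole numbers from the deposited fold and -log10 p-value, taking the fold as summit plus 1 over background plus 1 and the p-value as the Poisson chance of more fragments than observed. The solution lay within 0.0005 of the deposited value at 100% of peaks in both lists. On 3000 simulated peaks this step returned the right number of fragments in 100% of cases. Those peaks were made with the same formulas, so this checks the arithmetic and not the formulas. Their numbers of fragments did not reach those of the highest real peaks. The relative depth was not simulated. The lowest background was 0.381 fragments in the vasostatin-2 library and 0.31 in the PBS library. With the background's step size, taken as 1 fragment over an assumed 10000 bp, this gave the vasostatin-2 library a depth of 1.32 relative to PBS. The sources used here give no total of fragments per library.

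Genes came from RefSeq (GRCm38.p6, the assembly of mm10), on chromosomes 1 to 19, X and Y. A gene counted when any part of a peak lay within 1 kb of its start or end, and 1 peak could count for several genes. Strand and promoter sequence came from the RefSeq promoter table, which held 69 of the 89 genes, using the outermost start that it lists for each gene. Shares carry exact (Clopper-Pearson) 95% intervals, a count of 0 is given the limit that 3 counts would set, and ratios of fragments exact binomial ones. These cover counting error only, and PCR duplicates were not told apart. Tools were Python 3.11.15, pandas 2.3.3, scipy 1.17.1 and bedtools 2.31.1.

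The gene group, the other lists, the motifs and the settings were chosen with earlier results of these data known. Genes named are all those with a peak in both lists or in the vasostatin-2 list alone, the 10 of highest fold in the PBS list alone, and up to 4 of highest fold from each other list, except a few genes that are not reported here by name but stay in the counts. Rpl18, Rpl38, Rplp0 and Rplp2 fall outside this rule and were named after their values were seen. Promoters shown are the 6 of highest PBS fold among genes in both lists, less Rpl4, and those 6 were the only shared genes with a promoter entry. A planned random thinning of the vasostatin-2 summits was replaced by division by the relative depth. Of 16 genes listed for ribosomal DNA transcription, 13 were found in the table, and in the other lists every gene was found.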

Additional observations from a re-analysis of the deposited data

How the results depend on the processing

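The number of members with a peak was lower in the vasostatin-2 list than in the PBS list in every setting tried: windows of 500 bp and 3 kb, summits in place of whole peaks, q under 1e-05, at least 8 fragments with and without division by depth, and the list without paralogs. The share of all protein-coding genes was also lower in the vasostatin-2 list in each of these settings for which it was counted. With a window of 3 kb, 19 members were in the vasostatin-2 list (21.3%, against 13.8% of all genes). Of these, 14 were in both lists and 5 in the vasostatin-2 list alone. With q under 1e-05, 5 members were in the vasostatin-2 list (5.62%, against 3.47% of all genes). In the PBS list there were 13 (14.6%, against 7.35% of all genes). Among these members, 4 were in both lists, 1 in the vasostatin-2 list alone and 9 in the PBS list alone. With at least 8 fragments, 7 members were in the vasostatin-2 list (7.87%, against 6.36% of all genes) and 5 in both. With vasostatin-2 fragments divided by depth, 6 were in that list (6.74%, against 3.18%), 5 in both and 1 in the vasostatin-2 list alone. Stricter rules and narrower windows lower these counts by their construction. Over these settings, less the list without paralogs, the PBS member share was 1.76 to 1.99 times that of all protein-coding genes. In the vasostatin-2 list it was 1.24 to 2.12 times. The list without paralogs stood at 31.2% with PBS, against 14.8% of all genes, and at 15.6% with vasostatin-2, against 10.4%. The median ratio at shared peaks was -0.30 when divided by the ratio of background floors alone, a setting chosen after seeing the data, and -0.53 with a window of 3 kb. Few fragments per summit limit every count of genes in 1 list alone. No paired analysis was possible because each treatment has 1 NR1D1 library.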

Other observations

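Some members without a peak within 1 kb of either end had one 1 to 3 kb from an end, outside the gene or within it. Rpl23a, a protein near the exit of the nascent peptide, had 16 fragments with vasostatin-2 and 24 with PBS, with summits 3004 bp (vasostatin-2) and 2828 bp (PBS) from the gene, so that the edge of the vasostatin-2 peak reached the wider window. Rps2 had 9 fragments with vasostatin-2 at a peak inside the gene, 1621 bp from its nearest end, and 17 with PBS at another peak outside the gene, 2487 bp from its nearest end. Rpl7l1, a paralog without a peak in the narrower window, had 11 fragments with vasostatin-2 and 12 with PBS, both summits 1182 bp from the gene, and Rpl17 had 9 with vasostatin-2 and 6 with PBS. Rpsa, which had a PBS peak alone within 1 kb, had a vasostatin-2 peak of 13 fragments 2714 bp from the gene, beyond an end of it.

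Many ribosomal protein genes carry small nucleolar RNAs, which guide the modification of ribosomal RNA, within their introns. A small nucleolar RNA was annotated inside 30 members, of which 6 had a vasostatin-2 peak (exact 95% interval of the share 7.71 to 38.6%) and 9 a PBS peak (14.7 to 49.4%). Of the 59 members without one, 6 had a vasostatin-2 peak (3.82 to 20.8%) and 15 a PBS peak (25.4%). In each list the share of the genes without a small nucleolar RNA lay within the wide interval of the genes with one. Across all protein-coding genes the shares were 10.4% with vasostatin-2 and 14.8% with PBS.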
